A study of Mus musculus with 6 samples.

Results

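The array used to profile heat-exposed mouse testis carries, beside the usual probes to genes, probes tiled to long intergenic noncoding RNA (lincRNA) regions, which its annotation names by an mm9 interval and a strand instead of a gene symbol. There were 4607 such regions by name and strand, of which 4380 were kept: those on chromosomes 1 to 19, without chr1:158170713-180893982 (49 regions left out there, and 178 on chromosome X). The array's design tables, and not the measured values, chose them. They were compared between 2 strains, 3 arrays each, all from whole testes of male mice aged 3 months taken 10 days after a single scrotal heating at 43 °C for 20 min. One strain was C57BL/6 (B6). The other was B6.MRLc1-(D1Mit202–D1Mit403), called B6.MRLc1 here, a congenic strain in which a stretch of chromosome 1 between the named markers was bred onto the C57BL/6 background; the stretch left out above was taken for that part. All groups were heated, and no unheated testis was analysed here. The design text speaks of testes of 3 mice per strain, and the labels number the replicates without tying an array to an animal, so the errors measure the spread between these arrays. The 6 arrays shared a slide, with each strain in a row of its own, so row and strain cannot be told apart.

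Long intergenic noncoding RNAs are transcripts that do not encode a protein and start outside protein-coding genes. Some, such as Malat1 and Neat1, are abundant nuclear RNAs, and others act on chromatin near the place they are made. The testis is known for transcribing much of the genome outside coding genes, above all in meiotic and early postmeiotic germ cells, and many lincRNAs are detected most easily there.

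The 4380 regions came from 3348 intervals, 1032 of them probed on both strands, and split into 2206 forward (F) and 2174 reverse (R) regions. Many overlapped on a strand, so that they formed 3189 separate groups. Their median length was 10756 bases (interquartile range 1810.5 to 26119). The probes are 60 bases long, and each region had 1 to 10 of them (median 3, 15430 in all among the array's 55681). A region's value was that of its brightest probe, as log2 of the processed signal over the array's 75th percentile, so a value of 0 is that percentile's brightness. Because each value belongs to one short probe, levels are compared between arrays and not between probes.

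The probes below carry the regions on which the results turn. Each region has a label made of its chromosome and a letter. The first pair shows the fitted probe of 17a, chr17:15132576-15147002 (R), and a further probe of 17b, chr17:15100982-15115630 (R), with capitals for their shared run of 52 bases.
17a: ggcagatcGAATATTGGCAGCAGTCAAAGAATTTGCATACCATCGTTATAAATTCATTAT
17b: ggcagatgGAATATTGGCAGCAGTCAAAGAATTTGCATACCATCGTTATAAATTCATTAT
The next pair is the probe of 5g, chr5:14960146-14978541 (F), beside that of Speer8-ps1, a pseudogene of the Speer family of testis genes, with capitals for their shared run of 48 bases.
5g: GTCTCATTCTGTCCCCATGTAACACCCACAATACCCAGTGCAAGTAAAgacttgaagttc
Speer8-ps1: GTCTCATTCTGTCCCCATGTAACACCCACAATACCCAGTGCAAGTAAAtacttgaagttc
The others stand for some of the lower regions inside which a transcript probe lies on the same strand (13a, 1a, 7a, 5d). Other lower regions hold such a probe as well, and not all of these transcripts were called. The list also holds a lower region whose probe has the polyadenylation signal AATAAA, in capitals (17c). The higher regions 7b and 12a and the brightest region (19a) close it.
13a, chr13:24833082-24838461 (F): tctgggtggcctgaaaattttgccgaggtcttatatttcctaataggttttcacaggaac
1a, chr1:53215418-53244461 (R): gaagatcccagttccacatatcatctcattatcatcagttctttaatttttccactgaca
7a, chr7:137669440-137672712 (F): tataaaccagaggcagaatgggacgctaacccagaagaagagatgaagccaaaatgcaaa
5d, chr5:26333765-26338143 (F): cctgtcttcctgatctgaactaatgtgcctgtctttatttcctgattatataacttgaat
17c, chr17:29571806-29603008 (F): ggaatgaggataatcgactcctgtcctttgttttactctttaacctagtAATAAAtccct
7b, chr7:4828654-4843713 (F): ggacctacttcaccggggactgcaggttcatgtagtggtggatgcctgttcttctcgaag
12a, chr12:16838729-16839360 (F): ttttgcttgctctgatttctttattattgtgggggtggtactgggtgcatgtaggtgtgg
19a, chr19:5801802-5802597 (R): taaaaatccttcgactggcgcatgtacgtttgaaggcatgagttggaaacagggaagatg
AATAAA stood in 4.18% of the 3250 fitted region probes and its reverse complement TTTATT in 2.74%, against 16.1% and 4.69% of the 15001 probes of named genes.

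Of the 4380 regions, 3250 (74.2%) passed the filter on dim probes and were tested, and 1130 were not, against 15001 of 18748 named genes (80.0%). The groups of arrays are small, and their number limits the precision. In every array a larger share of named genes than of regions was well above background, the scanner software's call that a spot is brighter than its surroundings. On the B6 arrays 76.1%, 76.6% and 76.3% of the regions were well above background. On the B6.MRLc1 arrays these shares were 62.3%, 67.7% and 71.8%, all below the B6 arrays. The means differed by 9.09 percentage points over regions and by 5.26 over named genes; 3 arrays against 3 cannot give an exact permutation p below 0.1, so the difference was not tested further. The lowest log2 signal called well above background moved with it, from -5.76 to -5.68 on the B6 arrays, and -4.49, -5.01 and -5.31 on the B6.MRLc1 arrays; the part of that floor in the detection was not tested. Over all arrays 2640 regions (60.3%) were well above background on all 6 and 731 (16.7%) on none. There were 110 regions (2.51%) well above background on the 3 B6 arrays and on no B6.MRLc1 array, and none with the reverse, against 297 (1.58%) and 1 named genes.

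**Figure D1:**
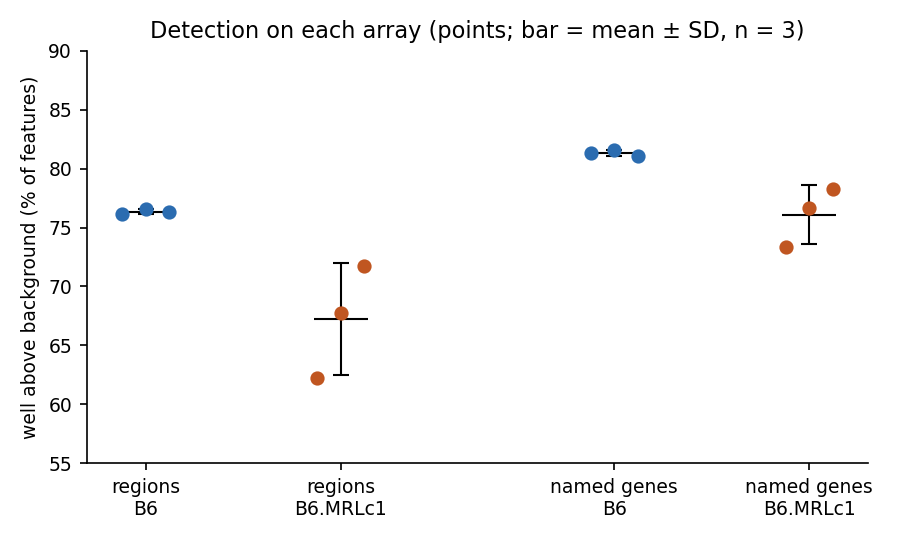
Share of the 4380 lincRNA regions and the 18748 named genes that were well above background on each array (points), with the mean and SD of the 3 arrays of a strain; the vertical axis starts at 55%. The 3 B6.MRLc1 arrays lie below the 3 B6 arrays in both kinds, by 9.09 points on average for regions and 5.26 for named genes.

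The strains were then compared region by region with limma, with p-values adjusted (Benjamini-Hochberg) over all 25275 features of the array that were tested, and a region was called at an adjusted p under 0.05. There were 36 called regions of 3250 (1.11%), 12 higher and 24 lower in B6.MRLc1. Of all features, 2.62% were called, 0.404% higher and 2.21% lower, and of the named genes 433 (2.89%), 57 higher and 376 lower. The smallest adjusted p of a region was 0.0231, and 523 regions (16.1%) had an unadjusted p under 0.05. The median difference (B6.MRLc1 minus B6, log2) was 0.06 over the tested regions, 0.01 over named genes and 0.02 over all features. Differences beyond 2-fold were 26 lower and 20 higher among regions (0.80% and 0.62%), and 519 lower and 50 higher among named genes (3.46% and 0.33%). Among regions well above background on all 6 arrays 0.11% lay under -1, and with normexp background correction 0.06% of those tested. The filter on all 6 arrays takes out regions that fell below the floor on a B6.MRLc1 array, which by itself makes the first share smaller. The normexp correction was run with an offset of 50 added to each signal before log2. Such an offset by itself makes the differences of dim features smaller, and its part was not tested. The B6.MRLc1 arrays all lay above the B6 arrays in 471 regions (14.5%, where 14.8% of all features did) and all below them in 234 (7.20%, where 13.8% did).

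The number of called regions fell whenever 1 array was left out. It was 0, 4 and 17 without B6 replicate 1, 2 or 3, and 3, 2 and 10 without B6.MRLc1 replicate 1, 2 or 3. Calls over all features, 661 with every array, fell as well, to 50, 169 and 482 and to 83, 56 and 317; without B6 replicate 1, limma left 415 regions at an unadjusted p under 0.05. No region was called in more than 2 of these 6 fits, and 19 of the 36 were called in none. With normexp background correction, 58 regions were called, 41 higher and 17 lower, where 3.52% of all features were called. With quantile normalization 17 of 37 calls were higher and 20 lower. Of the 24 regions called lower on the processed signal 11 were called with normexp too, and of the 12 called higher 9 were.

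In bulk testis, fewer cells of a type and less RNA per cell cannot be told apart. Markers of haploid germ cells moved with the strains. Of 28 tested round spermatid genes 11 were called lower and none higher (median log2 difference -1.40), and of 24 elongating spermatid genes 4 and none (-1.85). The round spermatid list's mean deviation per array ran from 0.41 to 1.11 on the B6 arrays and from -0.87 to -0.32 on the B6.MRLc1 arrays, and 2 of its genes were never well above background in B6.MRLc1. Over spermatocyte genes 2 of 29 were called lower (median -0.09), over spermatogonial genes 1 of 20 (0.11), and none of 19 Sertoli cell or 9 Leydig cell genes was called (0.10 and 0.05). Of markers of other tissue, none of 13 macrophage genes was called (-0.17), 1 of 9 adipocyte genes was called higher (1.04), and 1 of 4 epididymal and 1 of 7 red cell genes were called lower (-0.56 and 0.81). Over the tested lincRNA regions the same mean deviation lay between -0.07 and 0.03 on the B6 arrays and between 0.002 and 0.05 on the B6.MRLc1 arrays, so the ranges overlapped. The part of these cell markers in the called regions was not tested.

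The regions were dim, with a median of their mean log2 signal of -2.73, against 0.28 for named genes, and dim features have larger errors. They were therefore set beside named genes in bins of mean log2 signal, over features well above background on all 6 arrays, since a dimmer feature could pass the filter through its B6 arrays alone. From -5 to -4, none of 206 regions and none of 221 named genes was called lower by limma. This filter takes out features that fell below a B6.MRLc1 floor (-4.49, -5.01 and -5.31), so few lower calls could appear in that bin. Over all tested features, 5 of 627 regions (0.80%) and 42 of 1065 named genes (3.94%) were called lower there. With the filter on all 6 arrays, the shares called lower from -4 to -3 were 0.61% of 653 regions and 3.41% of 998 named genes. From -3 to -2 they were 0.35% of 579 and 5.02% of 1255, and from -2 to -1 they were 0.44% of 454 and 4.93% of 1399. The shares lay closer above that, at 1.14% of 176 regions and 1.43% of 1883 named genes from 0 to 1. At 2 and over, 2 of 160 regions (1.25%) and 19 of 4288 named genes (0.44%) were called lower, so the turned order there rests on 2 regions. From -4 to -3, the median SE of the log2 difference was 0.13 for regions and 0.14 for named genes.

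Weighted to the regions' distribution over these bins, 3.24% of the named genes so detected would be called lower and 0.67% higher, against 0.60% and 0.68% of the regions; 34 of 2648 regions were called there, where 2.38% of all features were. The share with a difference under -1 was 2.35% of named genes so weighted and 0.11% of regions. Both shares leave out features that fell below the floor on a B6.MRLc1 array. Over all tested features, some of which passed through the B6 arrays alone, the weighted named genes stood at 4.44% lower and 0.39% higher and the regions at 0.74% and 0.37%, and the shares under -1 were 7.26% and 0.80%. With normexp the weighted named genes stood at 4.45% lower and 1.10% higher and the regions at 0.52% and 1.26%, and the shares under -1 were 1.74% and 0.06%. Over all tested features, leaving out single arrays took the weighted share of named genes called lower to between 0.30% (without B6.MRLc1 replicate 2) and 3.04% (without B6 replicate 3), and that of regions to between 0 and 0.34%. These are counts within 1 set of arrays and carry no test of the regions as a list.

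**Figure D2:**
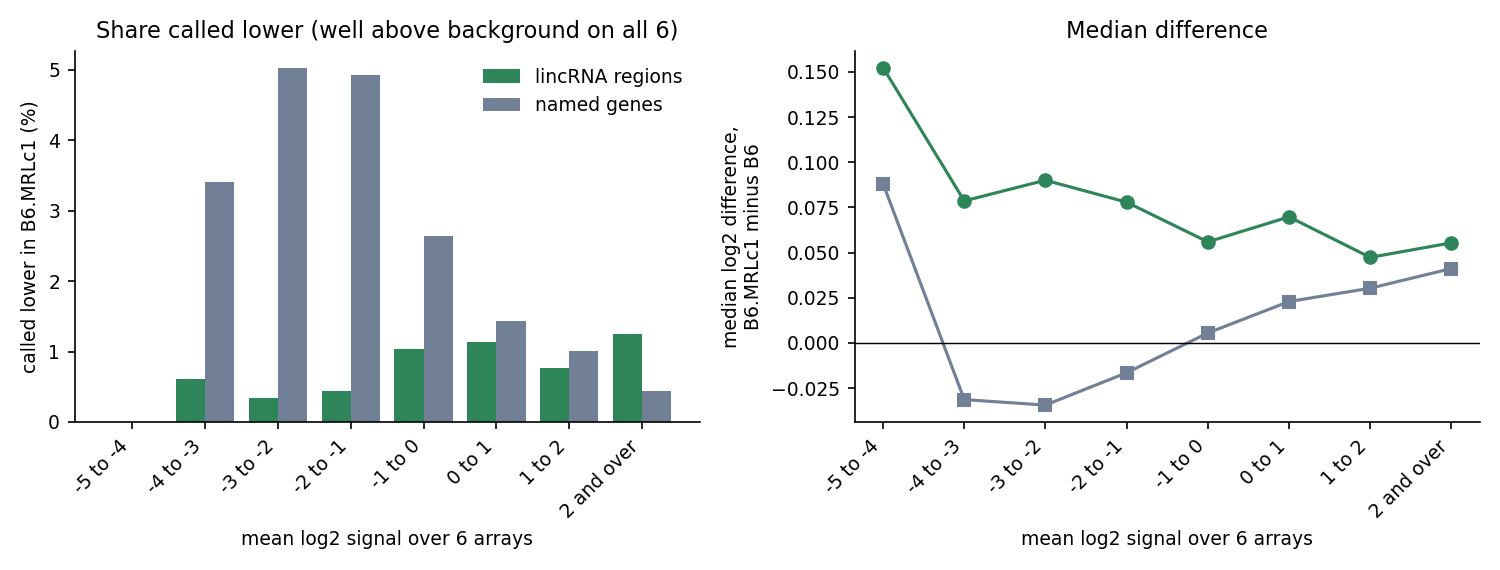
Share of lincRNA regions and named genes called lower in B6.MRLc1 (left, %) and the median log2 difference, B6.MRLc1 minus B6 (right), by bin of mean log2 signal, over features well above background on all 6 arrays; green marks regions and grey named genes. From -3 to -2 the share called lower was 0.35% of regions and 5.02% of named genes, and from -5 to -4 no feature of either kind was called lower. Features that fell below the floor on a B6.MRLc1 array are left out, so few lower calls could appear in that dimmest bin. At 2 and over the regions' bar is the taller one, but it stands for 2 regions.

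The largest called decreases that were well above background on every array were those of 17a and 17b, near each other on chromosome 17. Region 17a measured 1.65, 0.76 and 1.5 (log2) on the B6 arrays and -1.25, -0.67 and -0.47 on the B6.MRLc1 arrays. All B6.MRLc1 values lay below all B6 values, a mean of -0.80 ± 0.41 against 1.31 ± 0.48 (SD, n = 3), or 4.30-fold lower (log2 difference -2.10, SE 0.30, adjusted p = 0.0366 by limma). Region 17b measured 1.03, 0.21 and 0.89 on the B6 arrays and -1.20, -0.71 and -0.74 on the others. Its log2 difference was -1.59 (SE 0.25, adjusted p = 0.0426 by limma), and its 3 kept probes gave -2.09 to -1.52. The probe with -2.09 is the one printed above with the 52 bases of 17a, so signal of the 2 regions cannot be fully separated. A probe of Gm3448, a predicted gene, lies inside 17a on the same strand and was also called, at -1.73 (SE 0.24, adjusted p = 0.0320 by limma). On the other strand, Ermard, 33069 bases from 17a, was at 0.14 and was not called. The named gene nearest to 17b, Phf10, a chromatin remodelling subunit, was at -0.05. With normexp, 17a was at -1.89 and 17b at -1.42, both called.

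Region 13a is known in B6.MRLc1 only by a bound, since it passed the filter through the B6 arrays alone. It measured -3.73, -3.93 and -4.05 on the B6 arrays and -6.70, -7.20 and -5.78 on the B6.MRLc1 arrays, where it was never well above background. The B6 arrays were at least 2.05-fold higher, a bound set from each array's lowest signal well above background; with dim values raised to the floor it was at -1.03 and was not called (adjusted p = 0.0799 by limma), and with normexp it was at -0.51. The noncoding transcript ENSMUST00000136906, probed inside it on the same strand, was likewise well above background on the B6 arrays and on none of B6.MRLc1, and stood at -0.67 with normexp. Gmnn, the gene of the replication inhibitor geminin, lies 5254 bases away on the other strand and was at -0.30, not called.

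Region 1a, on chromosome 1 outside the stretch left out, measured -1.67, -2.41 and -2.05 on the B6 arrays and -4.37, -3.94 and -3.41 on the B6.MRLc1 arrays, of which 2 were well above background. All values of B6.MRLc1 were lower (log2 difference -1.86, SE 0.30, adjusted p = 0.0426 by limma; -0.81 with normexp). The transcript 1700019A02Rik inside it on the same strand moved alike, at -1.92 (adjusted p = 0.0342 by limma), whereas Pms1, a mismatch repair gene 1672 bases away on that strand, was at -0.12 and not called. Region 7a measured -2.93, -3.48 and -3.53 against -5.10, -5.02 and -4.66, with 1 of the B6.MRLc1 arrays well above background. Its log2 difference was -1.62 (SE 0.20, adjusted p = 0.0268 by limma; -0.56 with normexp), and NAP025521-001, a transcript probed inside it, was at -1.02 and missed the threshold (adjusted p = 0.0604 by limma). Nsmce4a, a gene of the Smc5/6 complex on the other strand, was at 0.26 and was not called.

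Among further lower regions, 17c was dim. Region 17c measured -3.77, -3.75 and -3.93 on the B6 arrays and -4.83, -4.82 and -4.53 on the B6.MRLc1 arrays (log2 difference -0.91, SE 0.10, adjusted p = 0.0248 by limma). It lies 27732 bases from Pim1, a kinase gene on the same strand, which was at 0.38 and not called. With normexp 17c was at -0.24 and was not called. With the mean of its 3 kept probes it was at -0.75 and was not called either (adjusted p = 0.0781 by limma). Region 5a, chr5:125713450-125735500 (R), measured -1.75, -1.74 and -1.74 against -2.30, -2.82 and -2.64, and was called with normexp too (log2 difference -0.84; -0.55 with normexp). The opposite strand of the same interval was at -0.18, and Scarb1, the high-density lipoprotein receptor gene 21983 bases away, at -0.04.

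In all, 13 of the 24 lower regions were well above background on all 6 arrays, and 6 on no array of B6.MRLc1. Beside 13a, those 6 held 4a, chr4:33369310-33369871 (R), with B6 at least 1.08-fold higher, 2a, chr2:128137419-128141735 (R), at least 1.17-fold, and 7d, chr7:96640618-96649018 (R), at least 1.38-fold. For 15a, chr15:62007025-62090191 (F), and 12c, chr12:110738120-110769295 (F), no bound above 1 could be given. Region 4a had a normexp difference of 0.05, in the other direction, and so did 4c, chr4:89088538-89130181 (F), at 0.02. With the mean of kept probes, 2a and 4c were not called (adjusted p = 0.0536 and 0.0612 by limma). With it 13a, 17b and 7a, of 3 kept probes each, still were (adjusted p = 0.0065, 0.0376 and 0.0386 by limma). Region 2a lies 304 bases from Morrbid on the same strand, and Morrbid was not tested. Regions 15a and 12c lie at or near known noncoding RNAs too. Region 15a contains the probe of Pvt1, the transcript next to Myc, which was at 0.14 and not called. Region 12c lies 13450 bases from Meg3, the maternally expressed RNA of an imprinted cluster, which was at -0.72 with widely spread B6 arrays (SE 0.41) and was not called.

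Chromosome 5 held 8 of the 36 called regions, 1 higher and 7 lower, among 217 tested (3.69%, against 1.11% of all tested regions and 2.62% of all features). Of the lower ones, 4 lie in pairs near genes of the Speer family. Regions 5d and 5e, chr5:26323150-26357875 (F), overlap. Region 5d measured 5.07, 5.03 and 4.97 on the B6 arrays and 4.54, 4.6 and 4.5 on the B6.MRLc1 arrays (log2 difference -0.48, SE 0.06, adjusted p = 0.0268 by limma). Region 5e measured 1.24, 1.20 and 1.24 against 0.76, 0.68 and 0.81 (log2 difference -0.48), and its opposite strand was at 0.26. Gm5067, probed inside both, was called too, at -0.40 (adjusted p = 0.0407 by limma). The Speer gene near this pair, Speer4a, lies on the other strand, 22789 bases from 5d and 3057 from 5e. It was at -0.27 and was not called (adjusted p = 0.243 by limma). Region 5g measured 2.83, 2.98 and 2.93 against 2.54, 2.53 and 2.55 (log2 difference -0.37), and Speer8-ps1 was at -0.37 (adjusted p = 0.0429 by limma), but with 48 shared bases these are not separate measurements. Region 5h, chr5:15033568-15033987 (F), was at -0.28 and lies 55027 bases from Speer8-ps1; its 3 kept probes ran from -0.28 to 0.22, and their mean was at -0.05 and was not called (adjusted p = 0.709 by limma). The probe of 5e also shared 47 bases with that of the region chr5:26374425-26393675 (F), so signal of such near-identical copies is uncertain. At the fitted probes of these 4 regions the arrays of the strains did not overlap and the SD was at most 0.07. Being called with 3 arrays per strain favours both, so they are no separate evidence. Of all features, 13.8% had the B6.MRLc1 arrays all below the B6 arrays. The 4 regions were all called with normexp, at -0.51, -0.44, -0.38 and -0.27.

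**Figure D3:**
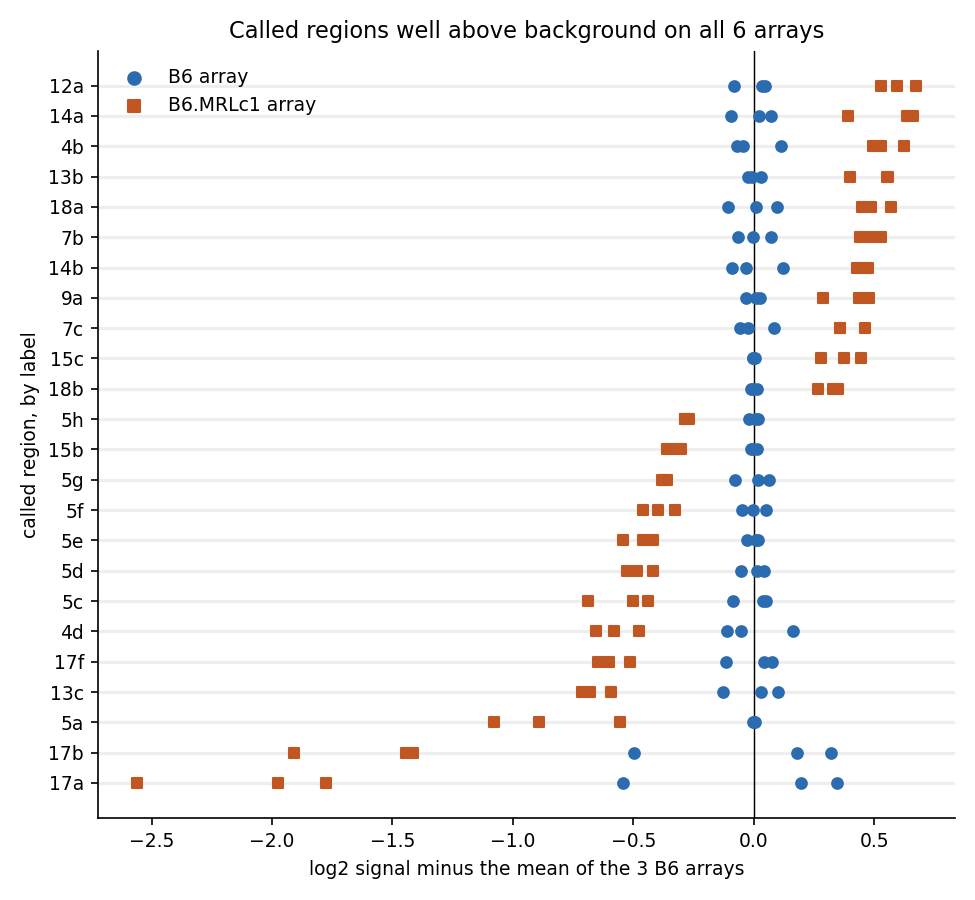
The 24 called regions that were well above background on all 6 arrays: log2 signal of each array minus the mean of the 3 B6 arrays (circles, B6; squares, B6.MRLc1), by label. The arrays of the strains do not overlap in any of them, which being called favours. Regions 17a and 17b lie farthest to the left and also show the widest spread among B6 arrays.

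The 12 higher regions changed by less, from 0.32 to 0.60 on the log2 scale, and 11 of them were well above background on all 6 arrays. Region 12a measured -4.20, -4.07 and -4.08 on the B6 arrays and -3.45, -3.59 and -3.52 on the B6.MRLc1 arrays (log2 difference 0.60, SE 0.07, adjusted p = 0.0231 by limma, the smallest of any region). It missed the threshold with normexp, at 0.29 (adjusted p = 0.0569 by limma). E2f6, a transcriptional repressor gene 5207 bases away on the same strand, was at -0.05. Region 14a, chr14:33901152-33976129 (R), measured -4.13, -4.18 and -4.30 against -3.54, -3.57 and -3.81 (log2 difference 0.56). The gene probed inside it, Wdfy4, was at -0.12 and was not called. Region 4b, chr4:115639749-115641787 (R), was at 0.55, but its other kept probe was at -0.09, and Faah, the fatty acid amide hydrolase gene probed inside it, was at -0.47 and not called.

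Regions 7b and 7c, chr7:4827340-4863315 (F), overlap and contain Isoc2a on the same strand. Region 7b measured 0.47, 0.41 and 0.55 on the B6 arrays and 0.92, 0.96 and 1.01 on the B6.MRLc1 arrays (log2 difference 0.48, SE 0.06, adjusted p = 0.0272 by limma). Isoc2a, an isochorismatase domain gene, was called at 0.47 (adjusted p = 0.0475 by limma). Region 7c measured 3.95, 3.92 and 4.06 against 4.33, 4.33 and 4.43 (log2 difference 0.39), and its opposite strand was at 0.49 and not called (adjusted p = 0.405 by limma). Its 6 kept probes ran from -0.28 to 0.46, and the probe at 0.46 shares 59 bases with that of 7b, so those probes are 1 measurement of that place. Region 13b, chr13:97700327-97700876 (F), rose by 0.50 with its probes between 0.14 and 0.50. Region 18a, chr18:75518299-75524782 (R), rose by 0.50, and both its probes gave 0.49 to 0.50; Smad7, an inhibitor of transforming growth factor signalling 30589 bases away on the other strand, was at 0.14 and was not called. Region 14b, chr14:61321789-61325711 (F), was at 0.45, and Spata13, 57230 bases away on the same strand, at 0.36 (adjusted p = 0.0557 by limma). Region 9a, chr9:65651848-65652920 (R), was at 0.40, and Zfp609, 6399 bases away on the same strand, at 0.03. With the mean of kept probes, 7c, 13b, 18a, 14b and 9a were not called (adjusted p = 0.0697, 0.105, 0.116, 0.257 and 0.209 by limma). Region 7b, with 1 kept probe, still was. The higher region not well above background on all arrays was 5b, chr5:106121842-106127192 (F), at 0.49, well above background on 2 arrays of each strain. Its opposite strand was at 0.44 and was not called (adjusted p = 0.338 by limma).

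None of the 5 regions with the highest mean was called. Region 19a measured 8.47, 8.41 and 8.64 on the B6 arrays and 8.83, 8.64 and 8.72 on the B6.MRLc1 arrays (log2 difference 0.22, SE 0.09, adjusted p = 0.231 by limma). The lowest B6.MRLc1 array and the highest B6 array were level to the second decimal. The array also names Malat1, whose older name NEAT2 has a probe of its own 5910 bases from the region on the same strand. Whether 19a and these probes measure the same RNA was not tested. Malat1 was at 0.63 (adjusted p = 0.0691 by limma) and was called with normexp at the same size (adjusted p = 0.0395 by limma); NEAT2 was at 0.65 (adjusted p = 0.0791 by limma). The other bright regions were 14c, chr14:78924115-78938125 (F), at 0.12, 17d, chr17:17481706-17482457 (R), at 0.11, 12b, chr12:73838608-73862621 (R), at 0.07, and 17e, chr17:39982023-39983277 (F), at 0.24. Region 17e lies 1781 bases from Rn18s, the gene of 18S ribosomal RNA, and its probe shares 57 bases with that of BC031453, which was at 0.39 and not called.

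Of 80 long noncoding RNAs with gene names, 39 were tested; 1 was called lower and none higher, with a median of 0.05. The called one, Kcnmb4os1, an RNA on the strand opposite a potassium channel subunit gene, measured -1.23, -2.09 and -1.51 on the B6 arrays and -5.54, -5.42 and -4.09 on the B6.MRLc1 arrays, of which 1 was well above background (log2 difference -3.40, SE 0.44, adjusted p = 0.0301 by limma; -1.49 with normexp). Neat1, the RNA that scaffolds paraspeckles, was at -0.02.

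**Figure D4:**
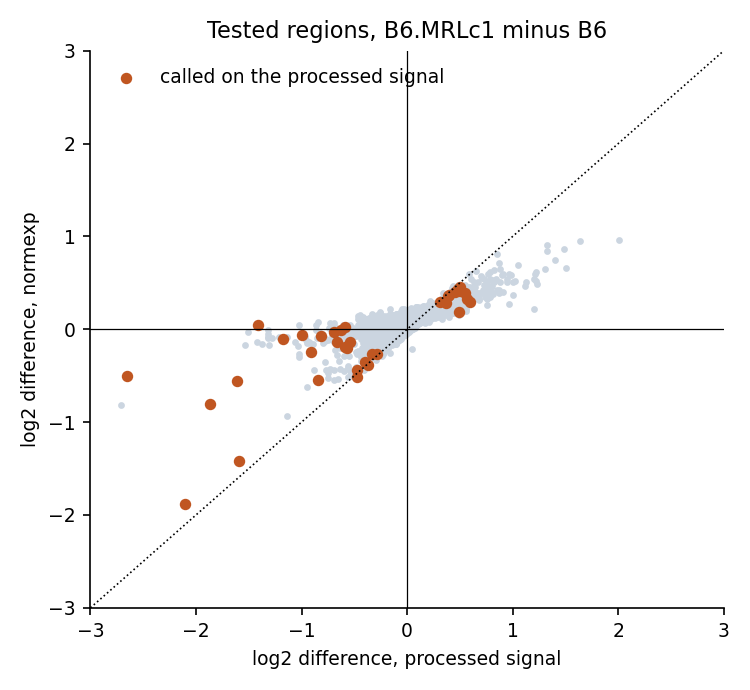
Log2 difference, B6.MRLc1 minus B6, of each tested region from the processed signal (horizontal) and after normexp background correction (vertical); regions called on the processed signal are coloured and the dotted line marks equal values. The lower called regions 17a and 17b lie near that line (-1.89 and -1.42 with normexp), whereas 13a, below the floor in B6.MRLc1, moves from -2.65 to -0.51. The offset of 50 used with normexp by itself makes differences of dim regions smaller.

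Some intervals gave signal on 1 strand. Among the 1032 intervals probed on both strands, both were well above background on all 6 arrays in 487. In 127 intervals one strand was so on all 6 arrays and the other on none, 61 with the forward and 66 with the reverse strand detected. Neither was detected in 38, and 380 fell in between. Over the 697 intervals tested on both strands, the log2 differences of the strands correlated at r = 0.07, a description over points that share the arrays. There were 9 intervals with a call on one strand and none with a call on both.

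Some regions contain a probe of an annotated transcript on their own strand, although the array calls them intergenic. This held for 854 of the 4380 (19.5%). Of the 682 of these that were tested, 15 were called (2.20%), and of the 2568 other tested regions 21 (0.82%), where 2.62% of all features were called. Across the 476 regions in which the transcript's fitted probe itself lies, the log2 differences of region and transcript correlated at r = 0.51, and at 0.46 over the 422 left when pairs of probes sharing 25 bases were set aside. Across 355 regions with a transcript on the opposite strand r was 0.004. For comparison, the brightest and the next probe of 1993 regions correlated at 0.40. These values describe points that share arrays, and some share a transcript or overlap each other. Of the 15 called regions with a same-strand transcript inside, the transcript was called as well in 8 and was not in 7; in 4 of the 15 the transcript's fitted probe lies outside the region, and the call of 13a and its transcript rests on the B6 arrays alone. Among pairs on opposite strands the region was called in 1, and its transcript was not.

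**Figure D5:**
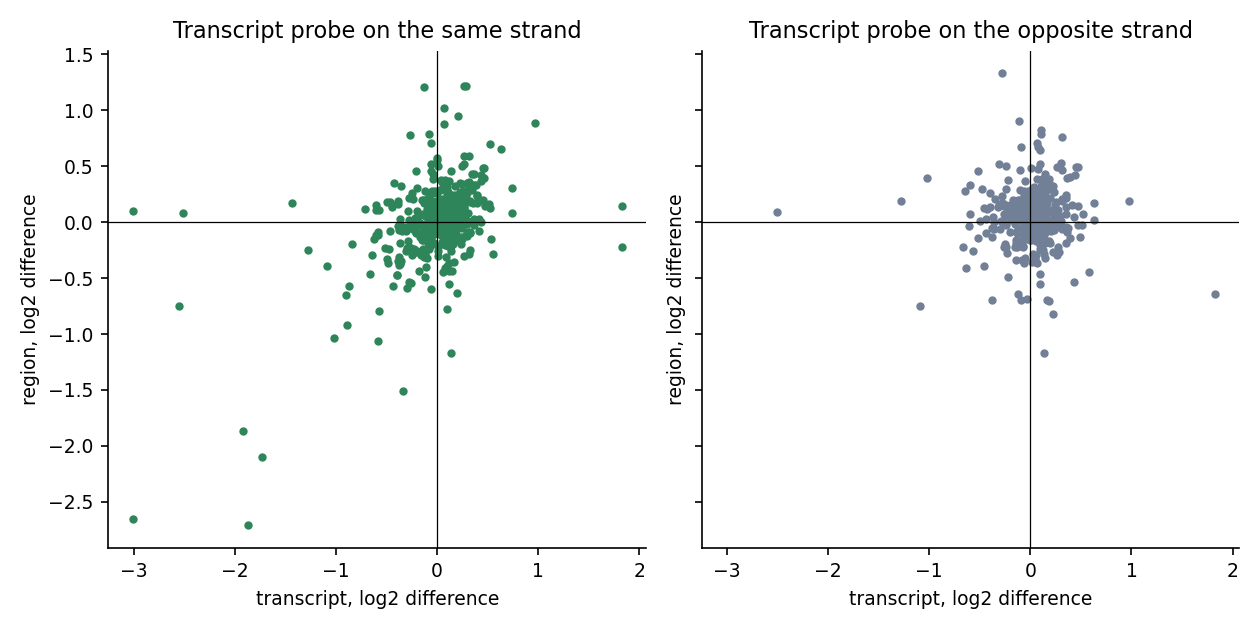
Log2 difference, B6.MRLc1 minus B6, of each region (vertical) against that of a transcript probed inside it on the same strand (left, 476 regions) or on the opposite strand (right, 355 regions); 1 transcript is drawn per region. The points on the left rise together (r = 0.51) and include the regions lowest in B6.MRLc1; those on the right have r = 0.004.

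The 36 called regions lay in 32 separate groups, since 17a with 17b, 5d with 5e, 5g with 5h, and 7b with 7c belong to the same overlapping stretches. By chromosome, 12 autosomes held at least 1 call and 7 held none. The chromosome medians of the log2 difference ran from 0.02 on chromosome 13 to 0.12 on chromosome 10, so none was below 0. The median GC content of the fitted probes was 45% for all tested regions and for those called higher, and 41.7% for those called lower and for named genes.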

How the data were processed

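Total RNA of testis in 6 samples was labelled with Cy3 and hybridised to 1-colour Agilent arrays. The deposited files hold scanner intensity per spot, made by Agilent Feature Extraction, given as 10.7.3.1 per the file headers and as 9.5.3 per the submitters' processing notes; probe positions are on mm9 (NCBI37), per the file headers. The authors' deposited series values, used as an alternative only, are log2 signals centred on each probe's median over the 6 arrays, as a comparison with the scanner values showed (r at least 0.999 per array over 31003 probes); their column medians are -0.016, -0.013 and 0.0046 for B6 and 0.0022, 0.0056 and 0.012 for B6.MRLc1.

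Here the background-corrected, processed signal of the files was divided by each array's 75th percentile and taken to log2. Normexp background correction, with an offset of 50, was run as an alternative. Probes with values on at least 4 arrays and well above background on at least 3 of 6 were kept (36626 of 55681), and the brightest probe stood for a region or gene. Strains were compared with limma 3.58.1 in R 4.3.3 (lmFit, eBayes), tested on simulated data, with Benjamini-Hochberg adjustment over 25275 features. A fold where a strain was not well above background is a bound, from the bright strain's mean and, per array, the higher of the lowest signal well above background and the probe's own. Named regions are the 10 largest called differences in each direction, the 5 brightest regions, and the other called ones that the text uses to show pairs, bounds or reversals, the last chosen after their values were seen. Neighbours were sought within 100 kb. The regions, lists and rules were chosen with earlier results of these data known; the marker lists support nothing on their own. The comparisons with transcripts inside regions, shared probe bases and probe motifs were added after seeing the data. No mm9 genome was used here, so sequences are those of the probes.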

Additional observations from a re-analysis of the deposited data

How the results depend on the processing

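The count of called regions, 36, moved by more than 1.5 times to 58 with normexp, 3 without the filter on dim probes, 21 with dim values raised to the floor and 126 with array weights (all features: 3.52%, 0.14%, 1.82% and 6.5% called), and to 0 to 17 when 1 array was left out. It stayed within 1.5 times of 36 under quantile normalization, the percentile over detected probes, the mean of probes, the filter on all 6 arrays, the variance trend and the deposited values. Of the calls, 33.3% were higher in B6.MRLc1, against 70.7% with normexp, 52.9% with the filter on all 6 arrays, 54.8% with array weights, 59.4% with the deposited values, 51.0% with the variance trend, 45.9% with quantile normalization, 24.3% with the percentile over detected probes and 22.2% with the mean of probes. With the replicate number as a block, limma called 0 regions, and 524 had an unadjusted p under 0.05; deviations of same-numbered arrays correlated at -0.03, 0.14 and 0.09, so the numbers were not taken to pair the arrays. The share of named genes called lower at the regions' brightness, 4.44%, was 0.15% without the filter, 8.51% with array weights, 2.56% with the deposited values, 0 with the replicate block, and 0.30% to 3.04% when 1 array was left out. The difference in detection, 9.09 points, was 8.49 when any probe of a region counted. Of 594 differences of the 36 called regions over 17 alternatives, 4 reversed: 4a and 4c with normexp (0.047 and 0.025), and 15a and 12c with the floor (0.36 and 0.21). The uncalled region 12b was at -0.080 with the mean of its probes. In the setting with the floor, the B6.MRLc1 values of 15a and 12c were replaced by those arrays' floors (-4.49, -5.01 and -5.31). Their B6 means were -5.30 and -5.15. For 4a, 4c and 12b the cause was not tested. Signal over background limits the dimmest regions, where a decrease is only a bound.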
